A study of Mus musculus with 3 samples.

Results

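Immediate early genes are described here in 3 sorted populations of cells from the inner bone surface of C57BL/6 mice. The 10 genes were fixed by name, with earlier results of these arrays known: Fos, Fosb, Jun, Junb, Jund, Egr1, Egr2, Atf3, Ier2 and Nr4a1. Every probe set whose only gene symbol is 1 of these names was taken, which gave 13 probe sets for 10 of the 18193 genes with a named probe set. Endosteal cells were released with collagenase from fragments of femur and tibia, and cells carrying CD45 (on white blood cells), CD31 (on endothelium) or Ter119 (on red cells) were left out. The rest were sorted by their surface ALCAM, which mediates adhesion between cells, and Sca-1, found on many progenitor cells, into ALCAM+ Sca-1- cells (ALCAM+ below), ALCAM- Sca-1+ cells (Sca-1+ below) and ALCAM- Sca-1- cells (marker-negative below). All 3 populations therefore share the enzyme treatment and the sort, and cells that had undergone neither were not analysed here. The age, sex and number of mice behind each array are not given in the sources used here.

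Immediate early genes are genes whose transcription starts within minutes of a stimulus, without new protein synthesis. Growth factors, calcium, stretch and cell damage reach them through MAP kinases and through transcription factors already in the cell, such as SRF with its Elk partners and CREB. Their messages are short-lived, and many of their products are transcription factors that act on later genes: Fos and Jun proteins pair to form AP-1, Egr proteins are zinc finger factors, and Nr4a1 is an orphan nuclear receptor. In solid tissues, enzymatic release and sorting are known to switch the same genes on, so their messages in sorted cells can come from the preparation as well as from the tissue. In bone, AP-1 proteins act in osteoblasts and are needed for osteoclasts.

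Each population was measured on 1 Affymetrix array, with no replicates, so no difference has a replicate check and none was tested. The words higher and lower describe these arrays only, and differences are counted by size, at 2-fold and at 4-fold. A signal is the deposited MAS5 intensity on a linear scale. The floor, 75.4, is the pooled median signal of all non-control probe sets, and 12643 genes are called measured because their brightest probe set exceeded it on 1 array or more. Different probe sets of the same gene gave differences that varied with an SD per probe set, on the log2 scale, of 0.38 for ALCAM+ over marker-negative cells, 0.47 for Sca-1+ over marker-negative cells and 0.53 for ALCAM+ over Sca-1+ cells (4152 genes). For the 655 genes with 2 probe sets at least 16-fold above the floor on each array, the brightness range of the genes described here, these SDs were 0.24, 0.29 and 0.32. They do not include how much mice or sorts vary. Because each array measures RNA of a whole population, fewer cells carrying a message and less of it per cell cannot be told apart.

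Skeletal markers set Sca-1+ cells apart from the other populations, which had like sums of chondrocyte markers and differed in osteoblast markers. The summed signal of 7 osteoblast markers was 145597 in ALCAM+ cells, 9976 in Sca-1+ cells and 46628 in the marker-negative cells, that of 8 chondrocyte markers 191681, 4291 and 170358, and that of 8 fibroblast markers 5672, 95982 and 2497. Of 10 endothelial markers, the ALCAM+ array had 2 above the floor, the Sca-1+ array 1 and the marker-negative array 3, with sums of 393.7, 955.8 and 551.6. Tek, at 630.6 in Sca-1+ cells, and Egfl7, at 217.2 in marker-negative cells, were the brightest of them, while Pecam1, Cdh5, Tie1, Emcn and Cldn5 were below the floor on every array. Of 7 B cell markers 1 was above it, in marker-negative cells. Red cell and neutrophil markers were uneven. Of 9 erythroid markers, the ALCAM+ array had 2 above the floor, the Sca-1+ array 1 and the marker-negative array 8, with summed signals of 456.4, 348.8 and 18719.9. Of 13 neutrophil markers, 3, 10 and 7 were above the floor, with sums of 554.7, 16656 and 3933. This list divided: S100a8, S100a9, Ngp, Camp, Ltf, Lcn2 and Mmp8 were highest in Sca-1+ cells. Mpo, Elane, Prtn3 and Ctsg were highest in marker-negative cells, at 1355.4, 483, 530.5 and 267.9. Of 12 macrophage and osteoclast markers, 6, 7 and 7 were above it, with sums of 8343, 12639 and 4995, most of it from Ctsk, and Adgre1, Mrc1, C1qa and C1qb were below it everywhere. Of 5 megakaryocyte markers 2, 2 and 3 were above it, with sums of 1179.5, 2179 and 1689. How far these cells contributed to the signals of the immediate early genes was not tested.

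All 10 immediate early genes were bright in all 3 populations. The brightest probe set of each gene lay at least 16-fold above the floor on every array, as did 22.1% of all measured genes, and the lowest of these 30 signals, Egr2 in Sca-1+ cells at 2525, was 33.5 times the floor. The summed signal of the 10 genes was 187637 in ALCAM+ cells, 135540 in Sca-1+ cells and 159433 in the marker-negative cells. The ratio of the highest to the lowest array ranged over the 10 genes from 1.16 to 2.09, with a median of 1.54. Over all measured genes the median of that ratio was 1.76, and over the 2791 genes at least 16-fold above the floor on each array it was 1.51. A ratio of at least 2 was found in 1 of the 10 genes, in 40.0% of all measured genes and in 23.3% of the 2791 bright ones. The narrow range was therefore close to that of other bright genes.

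**Figure D1:**
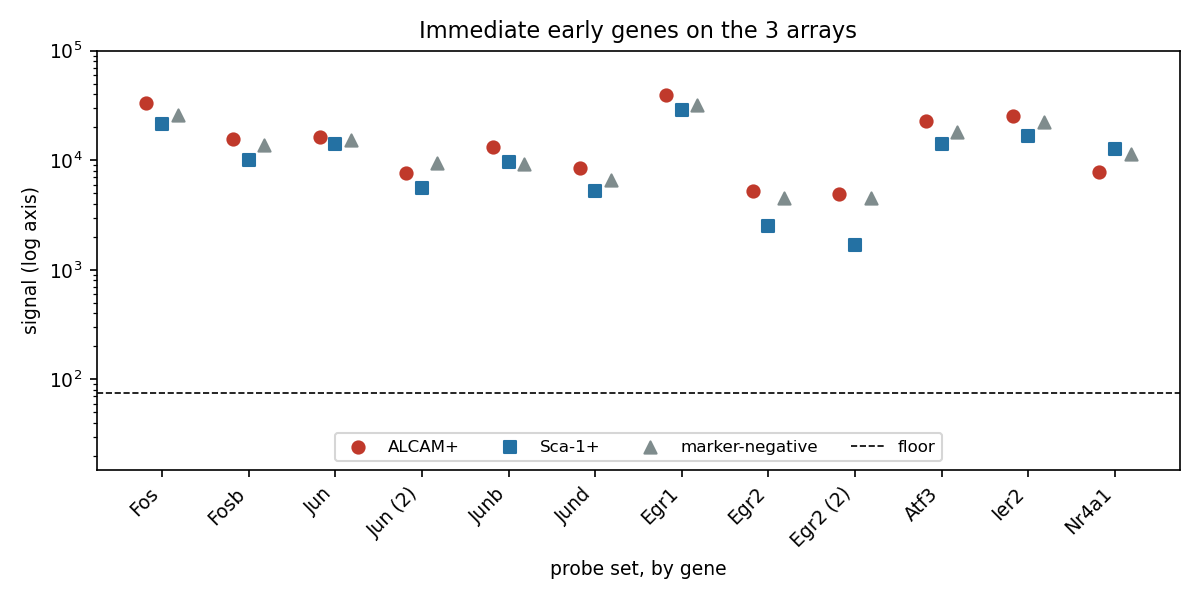
Signal of each probe set that rose above the floor (dashed line, 75.4), on a log axis, in ALCAM+ (circles), Sca-1+ (squares) and marker-negative cells (triangles), 1 array each; a name followed by (2) is the gene's second probe set. Every point lies far above the floor, and within a gene the 3 arrays lie close together, with the widest gap at Egr2.

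The 8 genes whose order over the arrays was the same, Fos, Fosb, Jun, Jund, Egr1, Egr2, Atf3 and Ier2, were highest in ALCAM+ cells, intermediate in marker-negative cells and lowest in Sca-1+ cells at the deposited scaling, but scaling on either set of spike-in controls put the ALCAM+ signal of all 8 below the marker-negative one, and that of all except Egr2 below the Sca-1+ one. At the deposited scaling Junb was also highest in ALCAM+ cells, but lowest in marker-negative cells, and Nr4a1 had the reverse order, highest in Sca-1+ and lowest in ALCAM+ cells. To show what letters the genes carry just before their starts, 3 promoters are given from RefSeq (build GRCm38.p6), each the 250 bases before the start of transcription, 5′ to 3′: Fos as the founding gene of the group, Egr2 as the gene with the widest difference and Nr4a1 as the one with the opposite order. Capitals mark the letters TGACG on either strand (CGTCA when read on the opposite one), the half-site of the cyclic AMP response element that CREB and ATF proteins bind, and the CArG box, the site of SRF.
Fos (chr12:85473640-85473889, plus strand): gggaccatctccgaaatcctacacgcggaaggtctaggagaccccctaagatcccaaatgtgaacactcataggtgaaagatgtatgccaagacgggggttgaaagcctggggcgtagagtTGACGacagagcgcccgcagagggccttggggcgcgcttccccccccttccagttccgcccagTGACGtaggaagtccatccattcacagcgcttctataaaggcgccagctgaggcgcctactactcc
Egr2 (chr10:67537619-67537868, plus strand): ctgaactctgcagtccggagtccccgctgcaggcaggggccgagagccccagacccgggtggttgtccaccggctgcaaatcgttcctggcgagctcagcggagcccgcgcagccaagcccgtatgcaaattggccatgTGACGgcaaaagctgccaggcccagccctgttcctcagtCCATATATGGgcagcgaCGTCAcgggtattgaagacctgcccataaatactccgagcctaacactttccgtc
Nr4a1 (chr15:101266596-101266845, plus strand): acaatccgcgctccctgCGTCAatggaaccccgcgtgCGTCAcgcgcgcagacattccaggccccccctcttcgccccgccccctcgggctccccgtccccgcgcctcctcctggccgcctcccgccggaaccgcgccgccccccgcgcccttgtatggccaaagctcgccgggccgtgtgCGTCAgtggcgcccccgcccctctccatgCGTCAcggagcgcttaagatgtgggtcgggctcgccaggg

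Promoter windows were found for 8 of the 10 genes. Egr1 and Ier2 had none here and were not searched. Counting upstream from the base next to the start as -1, the half-site began at -129 and -66 in Fos, and in Egr2 at -111 and, on the opposite strand, at -55. Nr4a1 held 4 of them, all on the opposite strand, beginning at -233, -213, -69 and -40. Together with Fosb, Junb and Atf3, 6 of the 8 genes held TGACG, as did 17.8% of all 32851 promoter windows of this length. The CArG box was found at -72 to -63 of the Egr2 window shown and in no window of the other 7 genes, against 1.47% of all windows. Neither the full element, which is the half-site followed directly by TCA and was found in 1.55% of all windows, nor the AP-1 site TGANTCA, found in 6.75%, occurred in these 8 genes. Egr2 has 5 windows in the table, some overlapping. A match describes letters only, and sites farther upstream were not searched.

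The Fos family genes encode the partners of Jun proteins in AP-1. Fos had a signal of 33114 in ALCAM+ cells, 21599.7 in Sca-1+ cells and 25828 in the marker-negative cells. ALCAM+ cells thus exceeded marker-negative cells 1.28-fold and Sca-1+ cells 1.53-fold. Fosb, a close relative of Fos that is usually scarce in resting cells, had 15606 in ALCAM+ cells, 10129 in Sca-1+ cells and 13933 in the marker-negative cells. Both genes kept the same order, and their differences between ALCAM+ and Sca-1+ cells were nearly equal, at 0.62 on the log2 scale for Fos and 0.62 for Fosb.

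The Jun family genes encode the other partners in AP-1 and can also pair among themselves. Jun had 2 bright probe sets. The brighter had 16384 in ALCAM+ cells, 14161 in Sca-1+ cells and 15280.0 in the marker-negative cells, the narrowest range of the 10 genes, and the other had 7607, 5547 and 9425. Sca-1+ cells were lowest in both, but the second probe set was highest in marker-negative cells, so the order of ALCAM+ and marker-negative cells is not settled for Jun. Junb, which often tempers Jun activity, had 13279 in ALCAM+ cells, 9690.2 in Sca-1+ cells and 9246.5 in the marker-negative cells. It was the gene with the largest excess of ALCAM+ over marker-negative cells, 1.44-fold, while Sca-1+ and marker-negative cells differed by 0.07 on the log2 scale. Jund, a Jun family gene that is expressed steadily in many resting cells, had 8547 in ALCAM+ cells, 5293.5 in Sca-1+ cells and 6581 in the marker-negative cells. A second Jund probe set never reached the floor, at 64.0, 29.9 and 14.4, and gives no comparison.

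The Egr genes encode zinc finger factors that bind GC-rich promoters. Egr1 had 39294.5 in ALCAM+ cells, 28771 in Sca-1+ cells and 32024 in the marker-negative cells, a range of 1.37-fold. Egr2, known for its roles in myelinating cells and in lymphocytes, had 5268 in ALCAM+ cells, 2525 in Sca-1+ cells and 4504 in the marker-negative cells. Its second probe set gave 4894.5, 1677 and 4539. Both probe sets put Sca-1+ cells well below the other populations. ALCAM+ cells were 2.09-fold higher than Sca-1+ cells by the brighter probe set and 2.92-fold by the other, whereas ALCAM+ and marker-negative cells were 1.17-fold and 1.08-fold apart. Egr2 was the only gene of the 10 to reach 2-fold in any comparison at the deposited scaling.

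Atf3 encodes a stress-induced partner of AP-1 and CREB proteins. It had 22889.8 in ALCAM+ cells, 14070.4 in Sca-1+ cells and 18269.8 in the marker-negative cells, and was 1.63-fold higher in ALCAM+ than in Sca-1+ cells. Ier2, a small gene without introns whose product acts in the nucleus, had 25429 in ALCAM+ cells, 16735 in Sca-1+ cells and 22436 in the marker-negative cells. Both followed the order of Fos. Nr4a1, also called Nur77, which is induced in many cell types by growth factors and antigen receptor signals, had 7826 in ALCAM+ cells, 12565 in Sca-1+ cells and 11332 in the marker-negative cells. It was the only gene of the 10 that was lowest in ALCAM+ cells, at 1.45-fold below marker-negative cells and 1.61-fold below Sca-1+ cells.

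Between ALCAM+ and marker-negative cells, 9 of the 10 genes were higher in ALCAM+ cells by some amount. So were 43.8% of all measured genes and 54.8% of the 2791 bright ones. Differences of this kind depended on the scaling of the arrays: with poly-A controls as the scale 0 of the 10 were higher in ALCAM+ cells, with hybridization controls 1, Junb, and with the probe sets of a gene averaged 8. None of the 10 was at least 2-fold higher (6.68% of all measured genes were) or at least 2-fold lower (10.6%), and therefore none reached 4-fold (2.01% higher and 2.67% lower). The median log2 difference of the 10 genes was 0.26, with a range from -0.53 for Nr4a1 to 0.52 for Junb. That of all measured genes was -0.03 and that of the 2791 bright genes 0.05. Of the bright genes, 6.70% were at least 2-fold apart in either direction.

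Between Sca-1+ and marker-negative cells, 2 of the 10 genes, Junb and Nr4a1, were higher in Sca-1+ cells and 8 lower. Of all measured genes 47.6% were higher, and of the 2791 bright ones 43.1%. Of the 10 genes, the number higher was 4 after quantile normalization, 4 under poly-A scaling and 5 under hybridization control scaling. No gene was at least 2-fold higher or lower, against 15% and 12.7% of all measured genes, or 4-fold, against 5.46% and 4.71%. Of the 2791 bright genes, 14.8% were at least 2-fold apart in either direction. The median log2 difference was -0.29, with a range from -0.83 for Egr2 to 0.15 for Nr4a1, beside 0 for all measured genes and -0.10 for the bright ones. With the 2 probe sets of Egr2 averaged, that gene reached -1.14.

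The comparison of ALCAM+ with Sca-1+ cells shares both arrays with those above and adds no new measurement. Of the 10 genes, 9 were higher in ALCAM+ cells, as were 44.7% of all measured genes and 57.5% of the 2791 bright ones. This number was 7 after quantile normalization and 1, Egr2, under either spike-in scaling. One gene, Egr2, was at least 2-fold higher, against 11.2% of all measured genes, and none at least 2-fold lower, against 15.8%; 4-fold differences, found in 3.99% of genes on the high side and 5.86% on the low side, were absent from the 10. Under either spike-in scaling 0 of the 10 were at least 2-fold higher and 1 was lower: Egr2 stood at 0.18 with poly-A and 0.27 with hybridization controls, and Nr4a1 at -1.57 and -1.48 (log2). The median log2 difference was 0.61, with a range from -0.68 for Nr4a1 to 1.06 for Egr2, beside -0.01 for all measured genes and 0.11 for the bright ones. Of the bright genes, 14.5% were at least 2-fold apart in either direction.

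**Figure D2:**
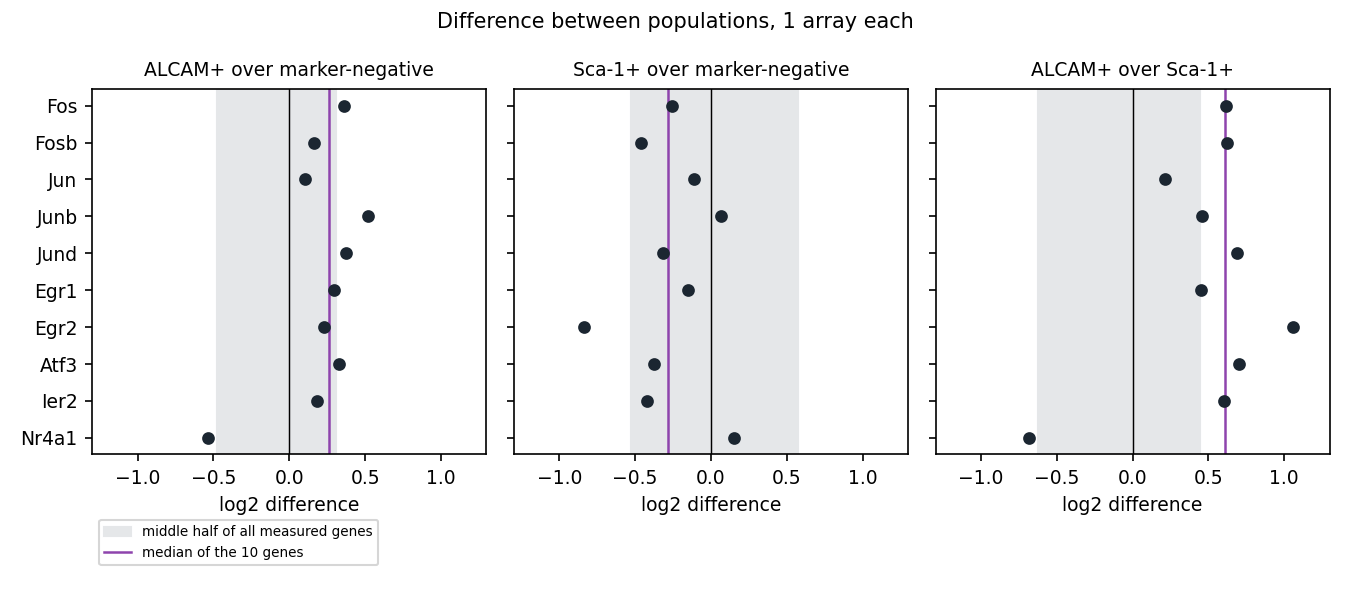
Log2 difference of each gene (points) in the 3 comparisons, from its brightest probe set; the grey band spans the interquartile range of all measured genes and the purple line is the median of the 10 genes (0.26, -0.29 and 0.61). Most points lie to the right of 0 where ALCAM+ cells stand on top and to the left for Sca-1+ over marker-negative cells, with Nr4a1 opposite; under either spike-in scaling the points of both ALCAM+ panels shift to the left, and 1 gene at most stays to the right of 0.

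Control signals moved in the same way as most of these genes. The 3′ control probe set of Actb, a cytoskeletal gene, had 31648 in ALCAM+ cells, 22093 in Sca-1+ cells and 27192 in the marker-negative cells, which is 0.52 on the log2 scale between ALCAM+ and Sca-1+ cells. The geometric mean of 24 probe sets for poly-A spike-in RNAs was 420.1, 227.6 and 271.9, and that of 18 probe sets for hybridization controls 5008, 2893 and 3553. By contrast, the 3′ control of Gapdh, a glycolysis gene, was highest in marker-negative cells, at 15003, 14221 and 19246. The ratio of 3′ to 5′ signal, a sign of RNA integrity, was 2.77, 2.55 and 2.77 for Actb. The same ratio for Gapdh was 3.75, 3.96 and 3.90, highest rather than lowest on the Sca-1+ array.

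Scaling on the spike-in controls lowered the median log2 difference of all measured genes between ALCAM+ and Sca-1+ cells to -0.82 for the poly-A set and -0.74 for the hybridization set, and that of the 10 genes to -0.27 and -0.18. Relative to the median of all genes, the 10 genes stood at 0.62 as deposited, 0.25 after quantile normalization, and 0.55 and 0.56 under the spike-in scalings. Of the 10, 9 lay above the median of all genes as deposited and under both spike-in scalings, and 8 after quantile normalization. A spike-in scaling multiplies a whole array by a single factor, so it could hardly change this number. The median of the 2791 bright genes, 0.11 as deposited, also lay above that of all genes. For Nr4a1 the sign of the difference from that median was negative under each of the 7 alternatives, and for Egr2 it was positive under each. Most of these alternatives could only shift the median slightly. Only quantile normalization, and for Egr2 also averaging of probe sets, could alter the difference further.

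**Figure D3:**
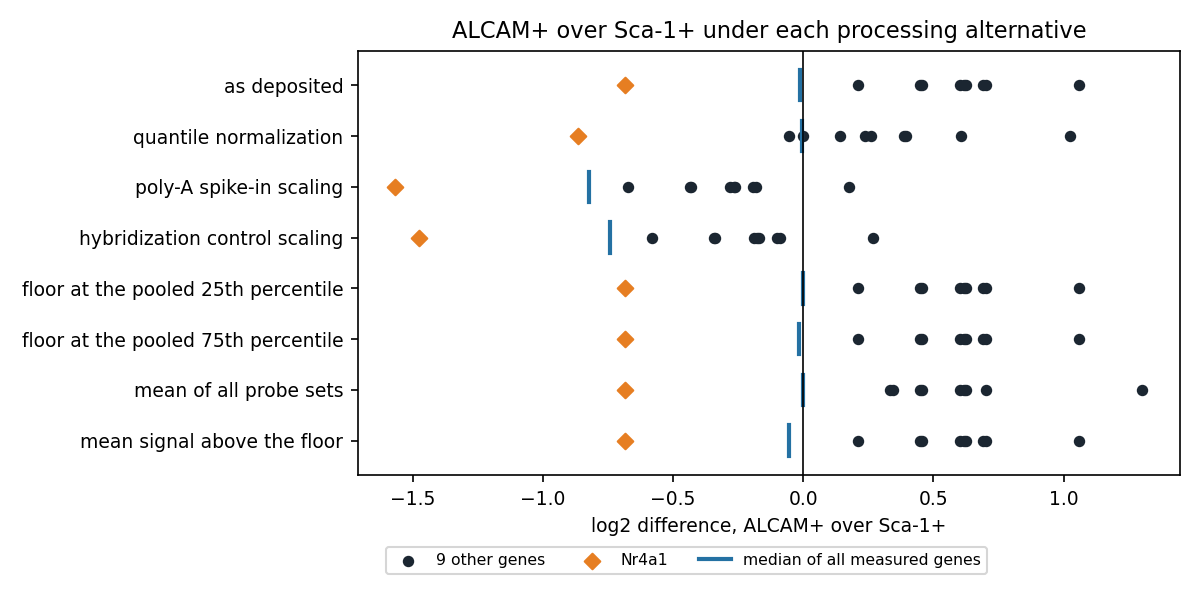
Log2 difference of each of the 10 genes between ALCAM+ and Sca-1+ cells under the deposited scaling and 7 alternatives (rows); blue bars mark the median of all measured genes and diamonds Nr4a1. The genes and the blue bar shift left together under the spike-in scalings, to medians of -0.27 and -0.18 for the 10 genes and -0.82 and -0.74 for all genes, and Nr4a1 lies left of the blue bar in each row.

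Relatives of the 10 genes were described with a list of 19 genes of the same families and their partners, all measured. Between ALCAM+ and marker-negative cells 0 were at least 2-fold higher and 2 lower, and the median log2 difference was 0.11. Between Sca-1+ and marker-negative cells 2 were higher and 4 lower, with a median of -0.33. Between ALCAM+ and Sca-1+ cells 4 were higher and 3 lower, with a median of 0.52. Among all measured genes the 2-fold shares in these comparisons were 6.68% higher and 10.6% lower, 15% and 12.7%, and 11.2% and 15.8%. The list also held differences past 4-fold, each involving Sca-1+ cells. Between Sca-1+ and marker-negative cells 1 of the 19 was at least 4-fold higher and 2 lower, against 5.46% and 4.71% of all measured genes. Between ALCAM+ and Sca-1+ cells 2 were higher and 1 lower, against 3.99% and 5.86%. The same shares apply to the lists below. Such differences were rarer among the 2791 bright genes, at 56 and 58 genes, and all of the 10 genes are bright. Batf3, a small AP-1 partner known from dendritic cells, had 529.9 in ALCAM+ cells, 77.0 in Sca-1+ cells and 1101.4 in the marker-negative cells, and Batf, its relative in lymphocytes, had 394.5, 89.2 and 569.8. Both were nearly at the floor in Sca-1+ cells. Atf5, a stress-related factor, went the opposite way, with 1217 in ALCAM+ cells, 5510.4 in Sca-1+ cells and 1130.3 in the marker-negative cells. No gene of this list reached 4-fold between ALCAM+ and marker-negative cells, where the widest differences were those of Egr4 (-1.72, with signals of 79.0 and 260.8), Batf3 (-1.06), Nr4a3 (-0.86) and Jdp2, which encodes an AP-1 repressor (0.74).

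The closest relatives of the 10 genes partly followed them. Fosl1, which encodes Fra-1, a Fos family protein of bone-forming cells, had 2661 in ALCAM+ cells, 972 in Sca-1+ cells and 3712 in the marker-negative cells, so Sca-1+ cells were lowest. Fosl2, the gene of Fra-2, had 6474, 4326 and 5307.5, in the order of Fos, but a second probe set disagreed for Sca-1+ against each other population, and the spike-in scalings turned its difference between ALCAM+ and Sca-1+ cells. Egr3 had 3872, 2061 and 3667, with Sca-1+ cells lowest, as for Egr2. Its other probe set agreed between ALCAM+ and Sca-1+ cells. That probe set was at the floor in both Sca-1+ and marker-negative cells and gives no comparison between them. Nr4a3 had 934.1 in ALCAM+ cells, 2653 in Sca-1+ cells and 1694 in the marker-negative cells, the order of Nr4a1. None of the 7 alternatives turned this order. A second Nr4a3 probe set lay at or close to the floor on every array and gives no comparison. Nr4a2 had 4542, 4974.5 and 3868, and only 1 of its 4 other probe sets placed Sca-1+ above ALCAM+ cells. The order seen for Nr4a1 therefore rests on the single probe set of that gene. It recurred in the brighter probe set of Nr4a3 and is not settled for Nr4a2.

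Other early response genes, 31 of 32 analysed, were at least 2-fold higher in 1 case and lower in 1 between ALCAM+ and marker-negative cells (median 0.21), in 4 and 8 cases between Sca-1+ and marker-negative cells (median -0.29), and in 7 and 1 between ALCAM+ and Sca-1+ cells (median 0.37). The 2-fold shares of all measured genes were 6.68% higher and 10.6% lower, 15% and 12.7%, and 11.2% and 15.8%. The medians of the list had the signs of those of the 10 genes. So had the medians of the 2791 bright genes, at 0.05, -0.10 and 0.11. The spike-in scalings turned many of the list's small differences between ALCAM+ cells and the other populations. Past 4-fold were Arc, a gene of neuronal activity that is also induced by growth factors, Btg1, an antiproliferative gene, and Thbs1, which encodes the matrix protein thrombospondin. Arc had 3639 in ALCAM+ cells, 517 in Sca-1+ cells and 4320.0 in the marker-negative cells. Thbs1 had 1432 in ALCAM+ cells, 331.0 in Sca-1+ cells and 1436 in the marker-negative cells. Btg1 had 27612.5, 6007 and 19008, and its 2 other probe sets above the floor pointed the same way in each comparison. All 3 genes were lowest in Sca-1+ cells, and Btg1 passed 4-fold only against ALCAM+ cells. Between ALCAM+ and marker-negative cells none passed 4-fold, and the widest differences were those of Id3 (1.14), Id2 (-1.08), Ptgs2 (0.93) and Plk2 (0.82).

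Feedback inhibitors, the induced genes that shut the response down, were measured for 21 of 22 genes. They were at least 2-fold higher in 0 and lower in 1 between ALCAM+ and marker-negative cells (median 0.07). Between Sca-1+ and marker-negative cells 3 were higher and 2 lower (median 0.28), and between ALCAM+ and Sca-1+ cells 1 and 3 (median -0.25). Shares of all measured genes past 2-fold were 6.68% higher and 10.6% lower, 15% and 12.7%, and 11.2% and 15.8%. The phosphatase gene Dusp5, which acts on nuclear ERK, had 3866.5 in ALCAM+ cells, 287.1 in Sca-1+ cells and 2331 in the marker-negative cells, so that ALCAM+ cells exceeded Sca-1+ cells 13.5-fold, and Sca-1+ cells lay 8.12-fold below marker-negative cells. Spry1, an inhibitor gene of growth factor receptor signals, had 334.8, 2004 and 309.3, highest in Sca-1+ cells. Tnfaip3, a brake on NF-kappaB, had 699.2, 3722 and 1591, and was 5.32-fold lower in ALCAM+ than in Sca-1+ cells. Dusp1, which switches off p38 and JNK, behaved more like Fos, at 26801, 21759.5 and 25091, and scaling on either control set or quantile normalization turned its small differences. Between ALCAM+ and marker-negative cells no gene of this list passed 4-fold. The widest differences were those of Tnfaip3 (-1.19), Nab2, an Egr corepressor gene (0.79), Spred1 (-0.78) and Dusp2 (-0.73). The second Tnfaip3 probe set was at the floor on both arrays and gives no comparison there.

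The kinases and factors that act upstream, 20 of 25 analysed, had 1 gene at least 2-fold higher and 1 lower between ALCAM+ and marker-negative cells (median -0.07), 4 and 2 between Sca-1+ and marker-negative cells (median 0.26) and 2 and 4 between ALCAM+ and Sca-1+ cells (median 0.05). Of all measured genes 6.68% were 2-fold higher and 10.6% lower, 15% and 12.7%, and 11.2% and 15.8% in these comparisons. Srf had 2154 in ALCAM+ cells, 1153 in Sca-1+ cells and 2489 in the marker-negative cells. Map2k6, a kinase gene of the p38 branch, had 605.0, 176.4 and 151.0, just past 4-fold between ALCAM+ and marker-negative cells. Rps6ka5, the gene of MSK1, had 513.4, 156.1 and 636.3, past 4-fold between Sca-1+ and marker-negative cells. Mrtfa, an actin-regulated partner of SRF, had 131.0, 542.9 and 165.8, past 4-fold lower in ALCAM+ than in Sca-1+ cells.

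Heat shock genes, another group known to respond to cell release, were analysed for 14 of 16 genes. They were at least 2-fold higher in 0 and lower in 3 between ALCAM+ and marker-negative cells (median 0.02), 3 and 3 between Sca-1+ and marker-negative cells (median -0.09) and 1 and 3 between ALCAM+ and Sca-1+ cells (median -0.07). Beside these counts, the 2-fold shares of all measured genes were 6.68% higher and 10.6% lower, 15% and 12.7%, and 11.2% and 15.8%. The heat shock genes had no common order, as 4 bright ones chosen after their values were seen show. Hspa1a had 8747 in ALCAM+ cells, 11207 in Sca-1+ cells and 9073 in the marker-negative cells, and Hspa1b had 8091, 14726 and 9806; both were highest in Sca-1+ cells, also under each of the 7 alternatives. Dnajb1, a cochaperone gene, had the order of Fos, with 29826 in ALCAM+ cells, 8844 in Sca-1+ cells and 25087 in the marker-negative cells, and was 3.37-fold higher in ALCAM+ than in Sca-1+ cells, a direction kept under each of the 7 alternatives, while either spike-in scaling turned its small difference from marker-negative cells. Hspa8, a constitutive chaperone gene, also had that order, with 33907, 26947 and 30427, but spike-in scaling and quantile normalization turned each of its differences. Hspb8, a small heat shock protein gene, was the only one past 4-fold, with 951.7, 6425 and 894.9. Between ALCAM+ and marker-negative cells the widest differences were those of Hsph1 (-1.53), Hspd1 (-1.06), Hspe1 (-1.01) and Dnajb4 (0.71), beside Hsf2, whose signal was 123.6 in ALCAM+ cells and below the floor in marker-negative cells, so that its 0.71 is a lower bound.

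**Figure D4:**
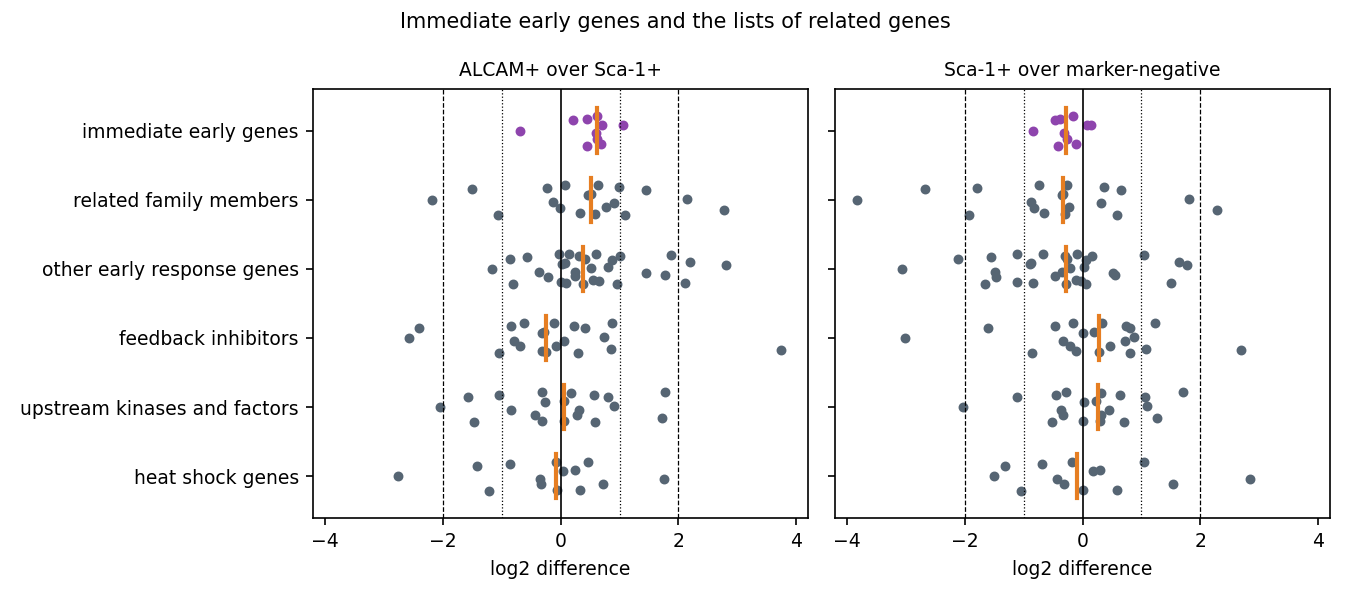
Log2 difference of each measured gene (points) of the 10 immediate early genes (top row) and of 5 lists of related genes, for ALCAM+ over Sca-1+ (left) and Sca-1+ over marker-negative cells (right), with each median in orange; dotted lines mark 2-fold and dashed lines 4-fold. The 10 genes, all bright, span -0.68 to 1.06 and -0.83 to 0.15. Each other list reaches past 4-fold on at least 1 side of both panels. Of all measured genes, 3.99% lie past 4-fold on the high side and 5.86% on the low side of the left panel. In the right panel these shares are 5.46% and 4.71%. Of the 2791 bright genes, 58 and 56 lie past 4-fold in the left and right panels. Under either spike-in scaling the left panel's values fall by about the same amount for every gene above the floor.

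**Figure D5:**
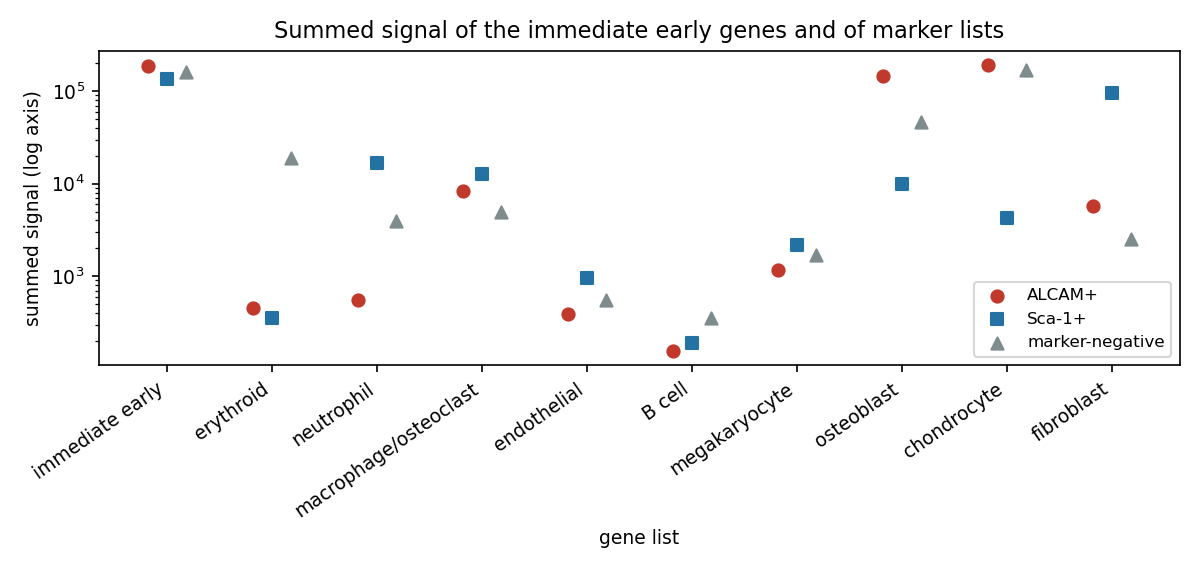
Summed signal of the 10 genes and of each marker list, on a log axis, in ALCAM+ (circles), Sca-1+ (squares) and marker-negative cells (triangles), 1 array each; sums of different lists are not comparable in height. The 10 genes lie between 135540 and 187637. The sum of erythroid markers is highest in marker-negative cells, those of neutrophil and fibroblast markers in Sca-1+ cells and that of osteoblast markers in ALCAM+ cells. Single markers can differ from the sum of their list, as Mpo, Elane, Prtn3 and Ctsg do among the neutrophil markers.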

How the data were processed

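Signal intensities of 45101 probe sets on each of 3 arrays were analysed as deposited. Per the submitters' processing notes the authors made these intensity values with MAS5, version not given in the sources used here, and per the labels' protocols the RNA was amplified by two-cycle labelling, which favours 3′ ends. The trimmed mean (2% off each end) was 500.0 on each array, so no further scaling was applied. Saturated spots are not marked in the table. Each array's population was taken from its title.

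Genes were named from the platform annotation, updated by Entrez identifier through a RefSeq table (GRCm38.p6, names only). Of the probe sets that are not controls (64 are), 34945 had 1 symbol, 932 several and 9160 none here; 0 symbols changed. Signals were raised to the floor and turned to log2, and a gene was represented by its brightest probe set. Python 3.11.15, numpy 2.4.6 and pandas 2.3.3 were used, checked on simulated data. There is no test: 1 array per population.

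The members, lists and alternatives were chosen with earlier results of these arrays known, and all genes past 4-fold, or else the 4 widest, are named per list; genes chosen outside this rule after their values were seen are Fosl1, Fosl2, Egr3, Nr4a2, Dusp1, Srf, Hspa1a, Hspa1b, Dnajb1 and Hspa8. The background of bright genes, at least 16-fold above the floor, was also added after seeing the data. List genes for which no probe set is named were not analysed here.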

Additional observations from a re-analysis of the deposited data

How the results depend on the processing

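Each array is a single measurement, and scaling decided the direction of small differences. The median log2 difference of the 10 genes turned sign under poly-A spike-in scaling (-0.37 for ALCAM+ over marker-negative and -0.27 for ALCAM+ over Sca-1+ cells) and under hybridization control scaling (-0.23 and -0.18, and 0.0106 for Sca-1+ over marker-negative cells). Either scaling put 1 of the 10 genes, Nr4a1, at least 2-fold apart between ALCAM+ and marker-negative cells, and averaging probe sets put 1, Egr2, there between Sca-1+ and marker-negative cells. Between ALCAM+ and Sca-1+ cells Egr2 lost its 2-fold difference under either spike-in scaling and Nr4a1 gained one in the opposite direction. No gene of the 10 was 4-fold apart under any of the 7 alternatives. Of 30 values (10 genes in 3 comparisons), 20 moved by more than the SD between probe sets of all genes under each spike-in scaling and 0 under each other alternative. Against the smaller SD between bright probe sets, 30 moved under hybridization control scaling, 20 under poly-A scaling, 4 after quantile normalization (Fos, Egr1, Ier2), 3 with probe sets averaged (Jun, Jund, Egr2) and 0 under the other 3. A spike-in scaling shifts all 10 genes of a comparison by the same amount, so its counts describe whole arrays and not single genes. The other 3 change only the floor or which genes count as measured, and could not move these bright genes. Of the 21 list differences past 4-fold, in 13 genes, none turned, but 12 stayed past 4-fold with the floor at the 75th percentile, where Batf was at the floor on both arrays of ALCAM+ over Sca-1+, 13 under poly-A scaling, 14 under hybridization control scaling, 17 with probe sets averaged and 19 after quantile normalization. No paired analysis was possible because each population has 1 array.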
